A study of Arabidopsis thaliana with 12 samples.

Results

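The transcripts described here are 116 of the 5154 transcript names on a one-colour Agilent array, each highest at 0 h or at 20 h of a 6-point time course in leaves of Arabidopsis thaliana. They carry TU codes, such as AT5TU048980, and 4499 of the names on the array are of that kind. A name became a member through the deposited series table of log2 values, in 4 steps. Its brightest probe stood for it. That probe had to be well above background, by the scanner's own mark, on all 12 arrays, which left 1022 names. The mean over the 2 arrays of a time point had to differ by 1.5 or more on the log2 scale between the highest and the lowest time point, which left 314 names. The highest mean had to fall at 0 h (53 members) or at 20 h (63 members). The remaining names had their highest mean at 4 h (78), 8 h (27), 12 h (56) or 16 h (37). Membership was thus set by the measured levels themselves, so the course of a member is a description and carries no test.

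The plants were wild type of the ecotype Col-0, with no transgene, mutation or chemical treatment named, and their leaves were taken at an age of 30 days. The chambers were kept at 22 °C and 65% humidity, with 8 h of light and 16 h of dark a day and a light level of 145 µmol per square metre per second. The groups are light 0 h, light 4 h, light 8 h, dark 12 h, dark 16 h and dark 20 h, each with 2 replicate arrays. The title of the series speaks of continuous light, against the light and dark of the sample titles and of the growth protocol, so light and dark serve here as names of groups. No label says whether the replicates were separate plants, pools or repeats of 1 extract, so the spread between them may be technical. Of 11 marker loci of leaf cell types looked for, 0 are on the array, and the labelled tissue could not be checked by markers.

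Plant cells keep time with a circadian clock, a set of transcription factors that repress one another in turn over the day. CCA1 and LHY act around dawn, the PRR proteins follow through the day, and TOC1 acts around dusk. Clock and light together set the daily course of much of the plant's transcription. Long non-coding RNAs are transcripts that are not known to be read into protein, and some of them, such as FLORE, an antisense partner of a flowering regulator, follow a daily course. No table used here gives a gene name, a function or a sequence for a TU code, so the members are described by their codes, positions and levels.

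Levels below are scaled log2 signals unless the series table is named. A scaled log2 signal is the log2 of the scanner's processed intensity minus the array's 75th percentile over the 2876 probes that were well above background on all arrays, so 0 stands for a bright probe and -4 for a dim one. Probes differ in how well they bind, so a level is compared only with that of the same probe on other arrays. The arrays for 0 and 4 h lay on slide 1 and those for 8, 12, 16 and 20 h on slide 2, each slide with a scan of its own. Slide and time thus cannot be told apart in any difference between 0 or 4 h and the later time points. The comparisons of 0 h with 4 h, and of 20 h with 8, 12 and 16 h, each lie within 1 slide. Between 26.5 and 41.2% of probes were well above background on 11 arrays, and 52.2% on the second dark 16 h array. On that array the series table stretched the scanner's values, with a slope of 1.28 against processed signal, where the slopes of the other 11 arrays lay between 0.956 and 1.02.

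The 53 members highest at 0 h had, as a group, a high start and a flat later course. The median of their levels, each centred on its own mean, was 0.75 and 0.71 on the 0 h arrays, and 0.34 and 0.14 on the 4 h arrays. On the 8 arrays of slide 2 the medians ran from -0.43 to -0.01. Their median course thus went down from 0 to 4 h, within slide 1, and again by about as much from 4 to 8 h, where the slide changed, with no clear low point after that. By processed signal the low point was 12 h in 19 of them, 16 h in 13, 20 h in 12 and 8 h in 9. The time point next below the highest was 4 h for 26 and 20 h for 10.

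The 63 members highest at 20 h had a different shape. Their centred medians lay between -0.03 and 0.07 on all 6 arrays from 0 to 8 h, then at -0.34 and -0.63 at 12 h, at -0.21 and -0.01 at 16 h, and at 0.53 and 0.58 at 20 h. The course was flat over the slide change, dipped at 12 h and was highest at 20 h. The 1022 detected TU names as a whole also had their lowest centred medians at 12 h, at -0.09 and -0.25. A dip there was thus not particular to these members. The lowest time point by processed signal was 12 h for 35 of the 63, 16 h for 15 and an earlier one for the other 13. The time point next below the highest was 8 h for 16, 0 h for 13, 16 h for 10 and 4 h for 8.

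**Figure D1:**
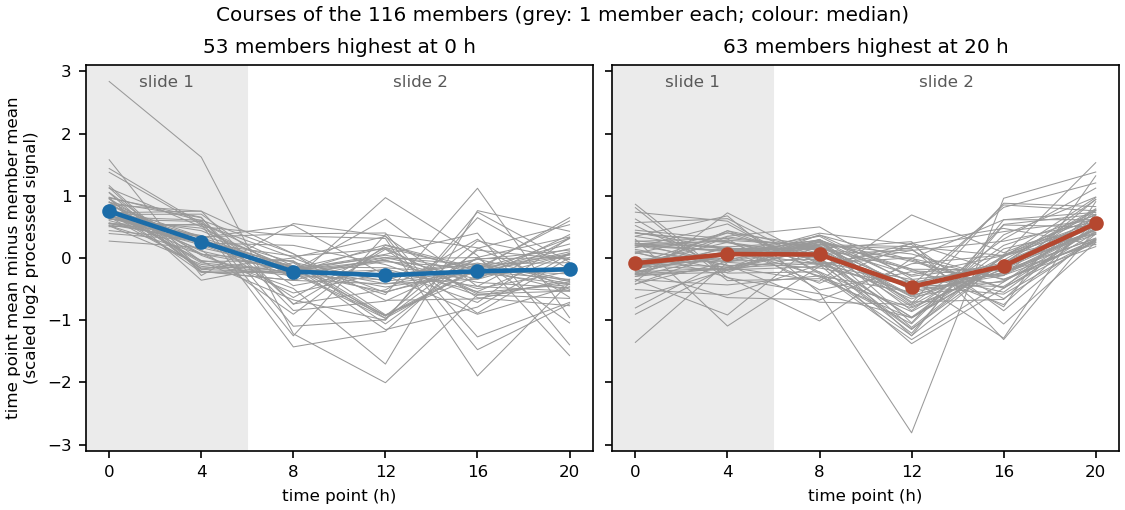
Time-point means of all 116 members in scaled log2 signal, each centred on the member's mean, against time in hours; grey lines are members, the coloured line is their median, and the shaded area marks slide 1. The median of the 53 members highest at 0 h goes down from 0 to 4 h and again from 4 to 8 h, and that of the 63 members highest at 20 h is flat to 8 h, dips at 12 h and is highest at 20 h.

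AT1TU001270 had the widest course of the 53. Its arrays read 0.11 and -0.99 at 0 h, -1.38 and -1.93 at 4 h, -4.78 and -4.22 at 8 h, -5.37 and -5.20 at 12 h, -4.26 and -3.47 at 16 h, and -3.88 and -3.98 at 20 h. All 4 arrays of slide 1 lay above all 8 of slide 2, and both 0 h arrays lay above both 4 h arrays. From the highest to the lowest time point its mean differed by 4.84, or 28.7-fold, most of it between 4 and 8 h and so across the slides. Its lowest spot was only 2.38 times its local background, which limits the precision of that fold. Its other probe was not well above background on all arrays.

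AT5TU048980 was highest at 0 h by a margin that lies within slide 1. It read 2.73 and 2.93 at 0 h, 0.96 and 0.97 at 4 h, 1.73 and 1.88 at 8 h, 1.55 and 1.66 at 12 h, -0.49 and 0.03 at 16 h, and 0.64 and 0.38 at 20 h. Both 0 h arrays stood above the other 10, and the 4 h arrays lay below those of 8 and 12 h. The 0 h mean exceeded the 4 h mean by 1.86 ± 0.23 (SE of the limma fit, 2 arrays each).

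AT5TU074710, whose name in the array files places its start at position 21692758 of chromosome 5, declined from 0 to 12 h. Its levels were -1.85 and -1.85 at 0 h, -2.73 and -2.74 at 4 h, -3.67 and -3.17 at 8 h, -3.94 and -4.95 at 12 h, -4.19 and -3.97 at 16 h, and -2.97 and -3.47 at 20 h. Each of the slide 1 arrays again lay above every array of slide 2. The replicates were nearly equal at 0 and 4 h and lay 1.01 apart at 12 h.

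AT4TU036690 had a second high time point. It read -1.67 and -2.04 at 0 h, -2.60 and -3.81 at 4 h, -3.30 and -3.39 at 8 h, -2.11 and -1.92 at 12 h, -3.04 and -2.85 at 16 h, and -4.62 and -4.49 at 20 h. The 12 h arrays overlapped those of 0 h, but they lay on different slides, so whether 0 h and 12 h differed cannot be told. It was lowest at 20 h, where its mean lay 1.79 ± 0.30 below that of 8, 12 and 16 h.

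AT5TU029110 read -1.35 and -1.21 at 0 h, -2.12 and -2.13 at 4 h, -3.02 and -5.16 at 8 h, -4.03 and -3.64 at 12 h, -2.75 and -2.26 at 16 h, and -1.92 and -2.33 at 20 h. Its 0 h arrays lay above the other 10, and its 20 h levels were close to those of 4 h. The 8 h replicates differed by more than the 0 h and 4 h means did, so its lowest time point is uncertain. AT2TU048640 was also uneven, with -1.83 and -2.22 at 0 h against -2.78 and -1.66 at 16 h, and its highest single array was the second of 16 h.

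AT2TU063580 was lower at 16 and 20 h than at any earlier time point. It read -2.21 and -2.20 at 0 h, between -2.85 and -2.48 on the 6 arrays from 4 to 12 h, -4.50 and -4.15 at 16 h, and -4.03 and -3.51 at 20 h. The 0 h arrays stood above the others, by 0.27 from the nearest of them. AT2TU011180 had a similar order of time-point means, but its single arrays did not keep it. It read 2.41 and 2.22 at 0 h, 2.24 and 0.77 at 12 h, -2.01 and 0.60 at 16 h, and 1.46 and 0.13 at 20 h. Its first 12 h array thus lay between its 0 h arrays, and its first 20 h array lay above its second 12 h array. For AT4TU055940 the 0 h arrays, at -2.55 and -2.31, lay above the other 10, which ran from -4.52 to -3.16. AT4TU035030 is a member by the series table alone: its processed signal was highest at 4 h, with -3.14 and -2.98 there against -3.07 and -3.11 at 0 h.

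AT3TU007390 had the widest course of the 63 members highest at 20 h. Its arrays read -1.51 and -0.89 at 0 h, -0.80 and -0.95 at 4 h, -2.59 and -1.64 at 8 h, -5.76 and -2.96 at 12 h, -0.72 and -0.46 at 16 h, and -0.16 and -0.18 at 20 h. Both 12 h arrays were the lowest of the 12, but they lay 2.80 apart, so the 18.3-fold difference between 20 and 12 h rests on 2 unequal arrays. The 20 h arrays lay above the other 10, by 0.28 from the nearest of them at 16 h.

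AT5TU024470 was lowest at 16 h and highest at 20 h. It read -3.87 and -3.81 at 0 h, -3.89 and -3.51 at 4 h, -3.74 and -3.53 at 8 h, -3.46 and -3.62 at 12 h, -4.37 and -4.29 at 16 h, and -2.29 and -2.16 at 20 h. Both 20 h arrays lay above the other 10, and both 16 h arrays lay below the other 10. Its 20 h mean exceeded that of 8, 12 and 16 h by 1.61 ± 0.17.

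AT1TU001870 read -4.04 and -3.65 at 0 h, -4.18 and -4.43 at 4 h, -4.21 and -4.47 at 8 h, -3.78 and -3.73 at 12 h, -3.87 and -3.36 at 16 h, and -1.85 and -2.41 at 20 h. Its 20 h arrays lay at least 0.95 above every other array, and the difference from 8, 12 and 16 h was 1.77 ± 0.23. AT3TU040120 also had its 20 h arrays, at -2.89 and -2.85, above the other 10 arrays, which ran from -4.56 to -3.29.

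AT1TU070170 was bright on every array and dipped at 12 h. It read 1.64 and 1.74 at 0 h, 1.65 and 1.86 at 4 h, 0.97 and 1.07 at 8 h, -0.36 and -0.15 at 12 h, 0.57 and 0.70 at 16 h, and 1.88 and 1.90 at 20 h. Replicates lay within 0.21 of each other at every time point. Within slide 2, 20 h was clearly apart from 8, 12 and 16 h (1.42 ± 0.15). The lower 20 h array exceeded the second 4 h array by only 0.02, and these lay on different slides, so 20 h was not clearly apart from 4 h.

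AT1TU046970 was lowest at 16 h. It read -2.33 and -1.96 at 0 h, -1.69 and -1.62 at 4 h, -1.51 and -1.501 at 8 h, -2.61 and -2.08 at 12 h, -3.31 and -3.29 at 16 h, and -1.47 and -0.74 at 20 h. The lower 20 h array lay 0.03 above the 8 h arrays, so the size of its margin rests on the second 20 h array. AT1TU045280, with a start at position 12986719 of chromosome 1 in its name, was lowest at 0 h (-1.79 and -1.78) and read 0.71 and 0.84 at 20 h. Its 16 h arrays, at 0.94 and -0.17, bracketed those of 20 h.

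**Figure D2:**
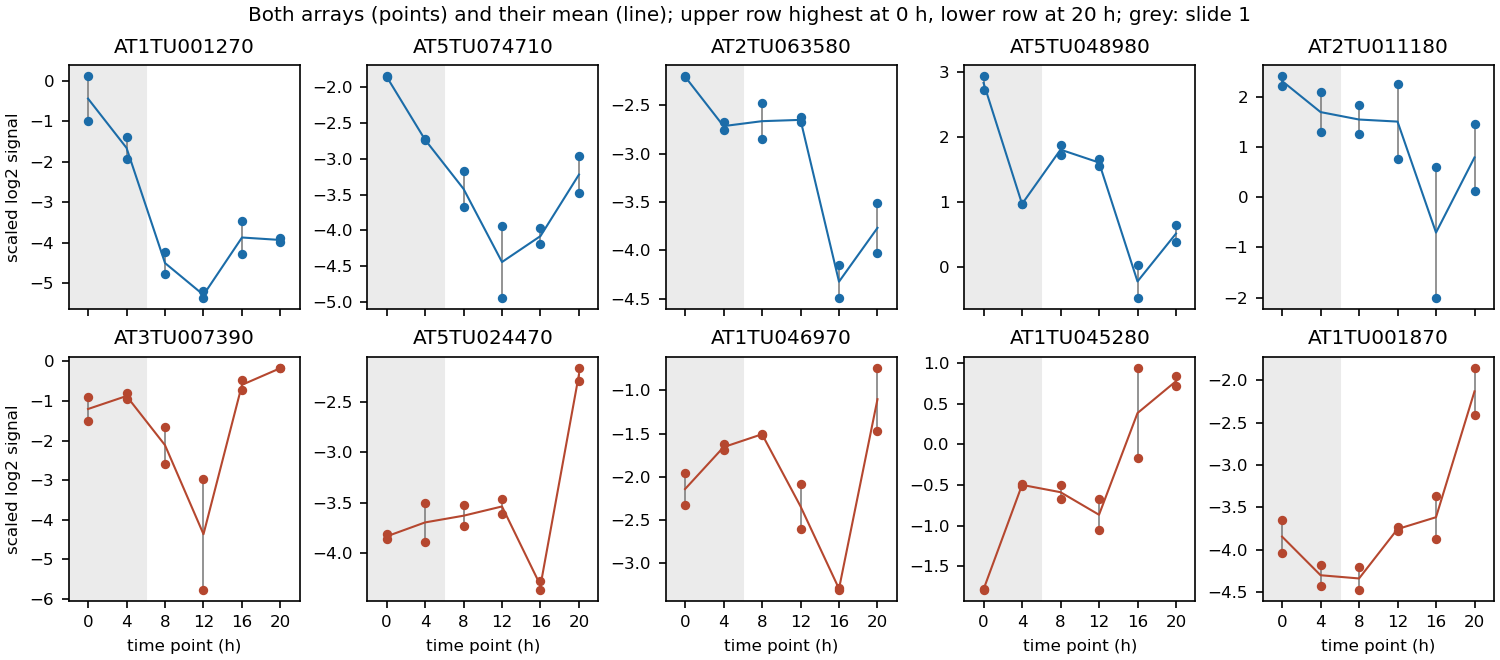
Scaled log2 signal of the 5 members with the widest range in the series table in each class, against time in hours; points are the 2 arrays of a time point, the line joins their means, and the grey area marks slide 1. In AT5TU024470 and AT1TU001870 both 20 h arrays lie well above the others, whereas AT1TU001270 changes level between slide 1 and slide 2.

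The other named members highest at 20 h in the series table were less clear by processed signal. AT4TU007770 was highest at 8 h there (-2.67 and -2.44, against -2.55 and -2.58 at 20 h). AT4TU044930, with a start at position 13152726 of chromosome 4, was highest at 0 h (-4.02 and -3.60, against -3.83 and -4.03 at 20 h), and its lowest arrays were those of 12 h at -5.91 and -5.80. AT1TU085220 read -3.16 and -2.86 at 20 h and -3.01 and -3.17 at 0 h, so these time points overlapped.

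AT5TU052750 and AT5TU052760 are consecutive TU numbers on chromosome 5, and both are members highest at 20 h. The first read -0.41 and -0.10 at 0 h, -1.18 and -1.06 at 4 h, -1.06 and -1.15 at 8 h, -1.88 and -1.60 at 12 h, -1.18 and -0.73 at 16 h, and -0.14 and -0.07 at 20 h. The second read -0.17 and -0.05 at 0 h, -1.24 and -1.34 at 4 h, -1.52 and -1.59 at 8 h, -1.77 and -2.09 at 12 h, -0.94 and -0.98 at 16 h, and 0.02 and -0.03 at 20 h. Both were high at 0 and 20 h and lowest at 12 h, and in AT5TU052750 the 0 and 20 h arrays overlapped. Their levels correlated over the 12 arrays with r = 0.94, points that share arrays and scaling.

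In the series table the members' ranges ran from 1.5043 to 4.62 for those highest at 0 h (median 1.81) and from 1.5025 to 4.06 for those highest at 20 h (median 1.71). By processed signal they ran from 0.61 to 4.84 (median 1.59) and from 0.50 to 4.19 (median 1.35), and 57 of the 116 kept a range of 1.5 or more. The highest time point was the same in both sets of values for 49 of the 53 and for 47 of the 63. The rule's limit cuts through a dense stretch of values. Just inside it lay AT3TU065940 (1.5025) and AT5TU047480 (1.5027), highest at 20 h, and AT1TU010810 (1.5043), highest at 0 h. Just outside lay AT1TU053300 (1.4968, highest at 0 h), AT5TU032420 (1.4910) and AT2TU040430 (1.4878), both highest at 20 h. By processed signal the 3 inside ranged over only 0.95, 1.19 and 0.81.

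The second dark 16 h array set much of the membership. In the series table it was the lowest of the 12 arrays for 76 of the 116 members, and the median difference between the second and the first 16 h array was -1.22. Over the 1022 detected TU names the centred series-table median was -0.88 on that array and between -0.01 and 0.17 on the others. Low values there were thus not particular to the members. By processed signal the second 16 h array was the lowest for 6 members, and the median difference was 0.19. Without that array 60 of the 116 members still met the rule in the series table, 28 of those highest at 0 h and 32 of those highest at 20 h. By processed signal on all 12 arrays, 49 met it (26 and 23). Both held for 44 members, 23 highest at 0 h and 21 highest at 20 h, and 72 members failed at least 1 of the 2. The 44 were picked after the values were seen and serve as a description only.

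**Figure D3:**
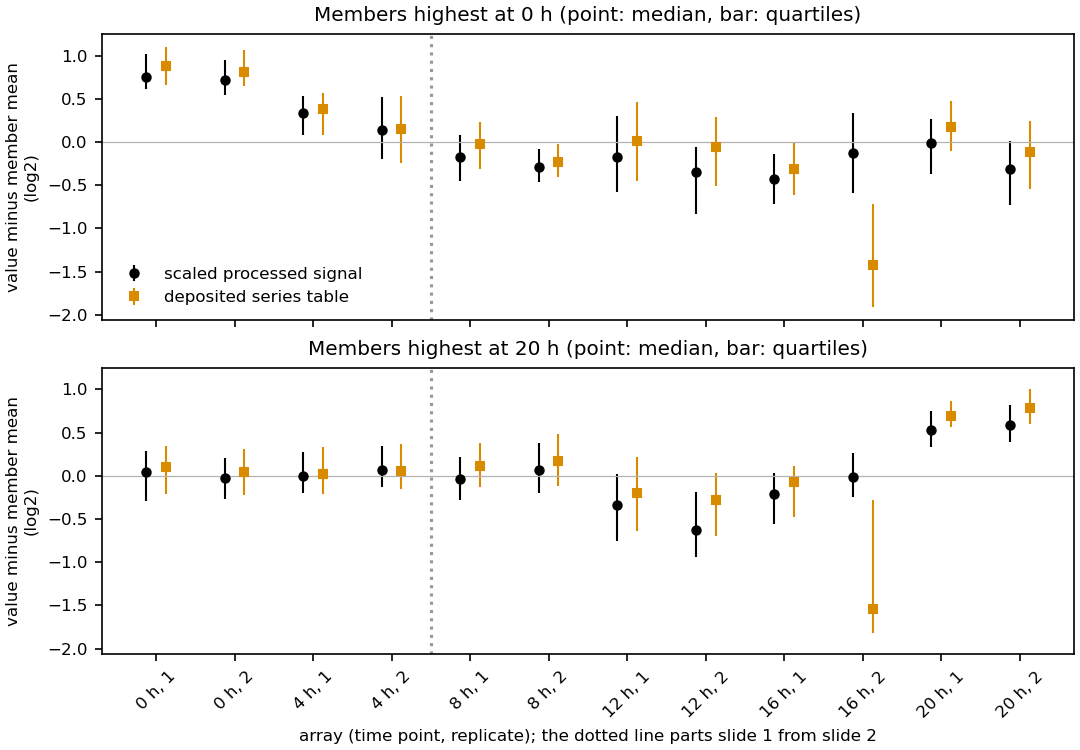
Centred log2 values of the members on each of the 12 arrays, by scaled processed signal (black circles) and in the deposited series table (orange squares); points are medians over members and bars run between the quartiles. The sets of values part most on the second 16 h array, where only the series table falls far below the other arrays. On the second 12 h array the series table lies higher than processed signal. Its medians there are -0.28 against -0.63 for members highest at 20 h and -0.05 against -0.35 for those highest at 0 h.

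Among the 44, 12 h was the most frequent low point in both classes: it was the lowest time point of 12 of the 23 highest at 0 h and of 17 of the 21 highest at 20 h. Detected TU names as a whole also had their lowest medians at 12 h, and their share with a low point there is not given. The lowest spots of the 72 other members lay somewhat nearer to their local background. The lowest spot of a member, as a ratio to its local background, had a median of 2.62 over the 44 and of 2.31 over the 72. Of all 116, 16 fell under 2 times the local background on at least 1 array, and the lowest ratio was 1.56. Whether low signal has a part in the loss of members was not tested.

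**Figure D4:**
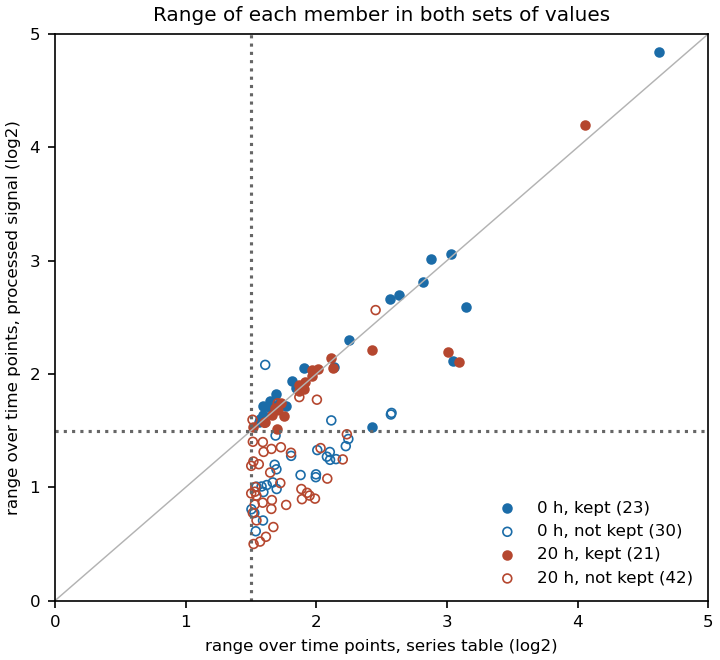
Range over the 6 time-point means of each member in the series table (horizontal, log2) and by processed signal (vertical, log2); dotted lines mark the rule's limit of 1.5, filled points are the 44 members that met the rule by processed signal and in the series table without the second 16 h array, and the diagonal marks equality. Open points lie mostly below the horizontal limit.

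Separation of single arrays gives another view of the members. Both 0 h arrays lay above the 10 other arrays in 21 of the 53 members highest at 0 h, where 3.06% of all 3306 transcripts tested and 3.62% of the 1022 detected TU names showed this. Both 20 h arrays did so in 22 of the 63 highest at 20 h, against 4.05% of all tested and 4.99% of detected TU names. The rule chose members for high means at these time points, so the excess is part of the choice and nothing is read from it. Of the 44 members above, 18 were separated in this way, 6 at 0 h and 12 at 20 h. In 10 of the 53, AT1TU001270, AT5TU074710 and AT4TU035030 among them, all 4 arrays of slide 1 lay above all 8 of slide 2 (3.09% of all tested and 3.33% of detected TU names), and in 0 of the 63. For 1 of the 63, AT3TU014030, all slide 2 arrays lay above all slide 1 arrays (1.72% of all tested and 2.25% of detected TU names).

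Within slide 1, the 53 members had 0 h minus 4 h differences from -0.04 to 1.86 with a median of 0.51, and 50 were above 0. The median over all tested transcripts was -0.05. Both 0 h arrays lay above both 4 h arrays in 40 of the 53, against 23.9% of all tested and 23.5% of detected TU names. The mean of slide 1 minus that of slide 2 was above 0 in 53 of 53, with a median of 0.70 and a range from 0.31 to 3.35, against a median of 0.13 over all tested transcripts. For the 63 highest at 20 h the median of that difference was 0.04, with 35 above 0. The members highest at 0 h thus all had higher means on slide 1, and the parts of slide and of time in that cannot be told apart. The rule chose these members for a high 0 h mean, which is part of the slide 1 mean. The signs and the excess over all tested are thus part of the choice, and nothing is read from them.

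Within slide 2, the 63 members had differences of 20 h from the mean of 8, 12 and 16 h between 0.02 and 2.19, with a median of 0.75, and 63 of 63 were above 0. The median over all tested was -0.17, and over the 1022 detected TU names 0.01. Against single time points the median difference was 0.93 from 12 h and 0.66 from 16 h. Both 20 h arrays lay above the 6 other arrays of slide 2 in 32 of the 63, against 6.72% of all tested and 9.39% of detected TU names. From 0 h, which lies on the other slide, 20 h differed by a median of 0.56, with 58 of 63 above 0. The rule chose these members for their highest mean at 20 h. The signs and the excess over all tested are thus part of the choice, and nothing is read from them.

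Fits with limma over all 3306 transcripts, with p-values adjusted by Benjamini-Hochberg over all of them and a threshold of 0.05, called 33 of the 116 members in an F test over all time points, where 14.7% of all tested were called. The 33 comprised 14 members highest at 0 h and 19 highest at 20 h. In the same test on slide 2 alone 7 members were called (4.17% of all tested), and with slide as a block 24 (12.0%). For 0 h minus 4 h, 2 members were called as higher, AT5TU048980 at 1.86 ± 0.23 and AT5TU052760 at 1.18 ± 0.19, where 0.454% of all tested were called, and 0 members as lower (0.393% of all tested). With the percentile over all probes, with no filter, and without any single array of 0 or 4 h, both calls were lost. AT5TU052760 also lost its call in the series table, after quantile normalization of processed signal, with the replicate block and without any single array of 8 or 20 h. On slide 1 alone limma called 0 members and 0 of all tested as higher (0.0%), where 271 transcripts had an unadjusted p under 0.05. For 20 h against 8, 12 and 16 h, 20 members were called as higher (2.84% of all tested), each of them highest at 20 h, and 8 on slide 2 alone (0.938%). AT4TU036690 was the 1 member called as lower (5.66% of all tested). The rule used the same time-point means, so these counts say how many members stood out from the replicate spread and support nothing else.

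A measure that the rule did not use is given by the other probes of the same names. Of the members, 113 have 3 probes on the array and 3 have 2. Among the 229 other probes, 53 were well above background on all 12 arrays, and they belong to 39 members; the other 77 members have no such probe. The 12 other probes of members highest at 0 h came from 11 members, and 7 of them were also highest at 0 h. The other 5 had their maximum at 20 h (2), 16 h (2) or 4 h (1). Of the 41 other probes of 28 members highest at 20 h, 21 were highest at 20 h, and the others had their maximum at 16 h (7), 0 h (6), 8 h (5) or 4 h (2). The within-slide difference that marks the class was above 0 in 10 of the 12 and in 34 of the 41. No matching share over the other probes of all detected TU names is given for this difference. These counts are thus a description and are not read as support for the members.

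Over the 6 time points an other probe and the rule's probe correlated with a median r of 0.83, from -0.61 to 0.99, and 23 probes of 18 members reached 0.9. These points share arrays and samples. For the 540 other probes of all detected TU names the median r was 0.76. The highest time point was shared by 54.7% of the members' other probes and by 53.3% of all 540, so the members' probes matched each other about as often as those of TU names in general. The other probe of AT5TU048980 was highest at 0 h with a 0 h minus 4 h difference of 1.41, and that of AT4TU036690 at 0.86. For AT5TU024470 the other probe gave a 20 h difference of 1.504, and for AT1TU001870 of 1.97. AT1TU070170 had 2 other probes with 2.09 and 1.59, the second highest at 0 h. The other probes of named members did not all share the highest time point of their member. Both other probes of AT5TU052760 were highest at 0 h, with 20 h differences of 0.65 and 1.04 against 1.48 for the rule's probe. The other probe of AT4TU007770 was highest at 8 h with 0.21, and that of AT5TU047480 at 16 h with -0.14. For AT5TU074710 it was highest at 0 h, with a 0 h minus 4 h difference of 0.45 against 0.88. An r below 0 was found for 3 of the 53 other probes, named after their values were seen: 1 of the 2 of AT1TU087310 (-0.49, the other at 0.81), that of AT5TU077750 (-0.61) and that of AT5TU014120 (-0.10).

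**Figure D5:**
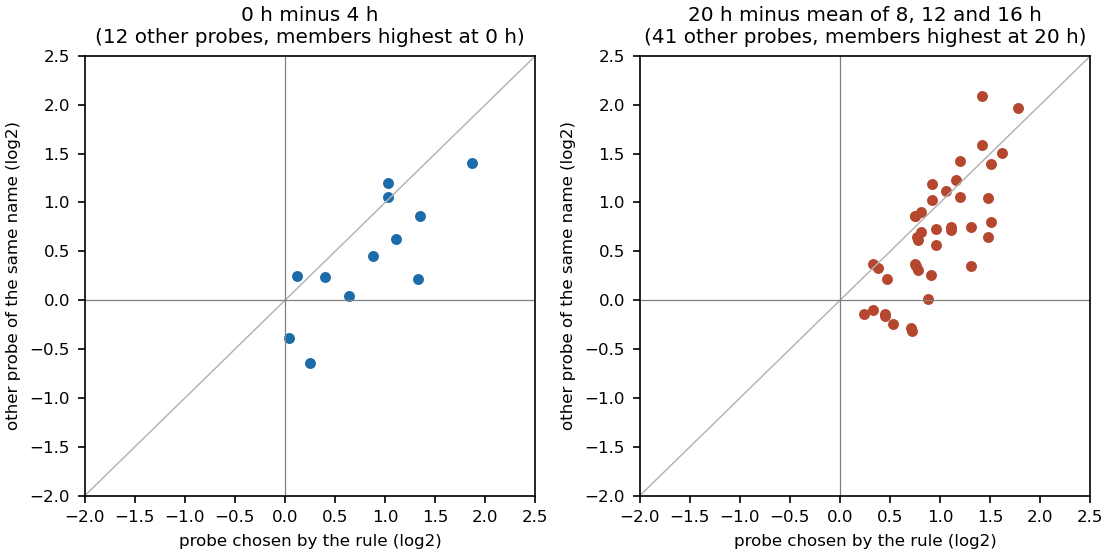
Difference of each other probe (vertical, log2) against that of the probe chosen by the rule (horizontal, log2), for 0 h minus 4 h in members highest at 0 h (left, 12 probes) and for 20 h minus the mean of 8, 12 and 16 h in members highest at 20 h (right, 41 probes); the diagonal marks equality. Above the horizontal zero line lie 10 of the 12 and 34 of the 41 other probes.

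The members lay on all 5 chromosomes, with 39 on chromosome 1, 15 on chromosome 2, 15 on chromosome 3, 16 on chromosome 4 and 31 on chromosome 5. As a share of the detected TU names there, these are 14.1%, 7.58%, 8.93%, 10.8% and 13.4%. Only 25 members carry a start position in their name, and their ends are cut off in the files. Names with a position are in the order of their TU numbers on all 5 chromosomes, so near numbers were used as a sign of near position. Among members, 70 have another TU name within 20 numbers on the array, in a numbering that goes up by 10, and for 23 that name was detected on all arrays.

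These gave 26 pairs with a median r of 0.28 over the 12 arrays, and the 140 such pairs among all detected TU names had a median of 0.31. In 4 of the 26 pairs r was at least 0.8, where 9.29% of all 140 pairs reached that. Besides the member pair above they were AT5TU061020 with AT5TU061000 (0.92), AT5TU052370 with AT5TU052360 (0.85) and AT2TU017340 with AT2TU017330 (0.83). The lowest r was -0.57, for AT4TU017880 with AT4TU017870. It was taken without the first 16 h array, on which the spot of AT4TU017870 was left out as an outlier. AT3TU007390 and its neighbour AT3TU007380 had r = 0.24, and the neighbour was highest at 16 h with 0.56 and 0.53.

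The transcripts with a locus code whose levels over the 12 arrays were most like the median course of the members highest at 0 h were AT1G24068 (r = 0.85), AT2G35637 (0.80), AT1G58590 (0.79), LTI65 (0.79) and AT2G14115 (0.78), of 462 tested. LTI65 encodes a protein that accumulates under drought, salt and abscisic acid, and the other 4 are listed as non-coding RNAs. LTI65 read 1.87 and 1.64 at 0 h, 1.00 and 1.07 at 4 h, and between -0.45 and 1.16 on slide 2. For the members highest at 20 h the closest were AT1G01448 (0.95), AT1G29357 (0.94), AT4G38545 (0.92), AT4G37895 (0.90) and AT1G56612 (0.88), all of them listed as long non-coding RNAs. AT1G01448 read -0.42 and -0.39 at 20 h and between -1.76 and -0.99 on the other 10 arrays, with its lowest levels at 12 h. These values share arrays and scaling with the members. The share of non-coding RNAs among the 462 is not given, so nothing is read from the types of the closest loci.

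Of 14 clock-related loci looked for, 9 are on the array, and 0 of them were highest at 0 h. CCA1 and LHY were highest at 8 h, PRR9 and PRR7 at 12 h, and PRR5, PRR3 and TOC1 at 16 h. Thus CCA1 and LHY, described above as acting around dawn, were not highest at 0 h. TOC1, described as acting around dusk, was highest in the dark 16 h group. The hours are therefore not read here as times of dawn or dusk, and the reason for these clock courses was not tested. CHE, a repressor of CCA1, and FLORE were highest at 20 h, the time point of the 63 members. For CHE this was a near tie, with 4.21 at 12 h, 4.25 at 16 h and 4.29 at 20 h, and its r with the median course of the 63 was -0.04. CCA1 had time-point means of 0.84, 6.48, 6.55, 4.74, 0.34 and -0.73 from 0 to 20 h, and was thus lowest where those members were highest. PRR9 was highest at 12 h with a mean of 4.05, the time point at which the 63 had their lowest median. Its r with the course of the 63 was -0.70 over the 12 arrays, which span both slides. That r was -0.44 for CCA1, -0.34 for LHY, -0.57 for PRR7, -0.43 for PRR5, 0.08 for PRR3 and 0.41 for TOC1. FLORE had 3.41 at 20 h, 2.85 at 0 h and -1.40 at 8 h, and its r with the same course was 0.46. PRR9, PRR7 and CHE were lowest at 0 h and ran against the course of the members highest at 0 h, with r of -0.63, -0.83 and -0.90. The clock list as a whole did not: r with that course was -0.10 for CCA1, -0.09 for PRR5 and -0.26 for PRR3. It was 0.19 for LHY, 0.19 for TOC1 and 0.34 for FLORE. The spread of r over all locus-code transcripts is not given, so nothing is read from these values. CHE had means of 3.34 and 3.39 on slide 1 and between 4.05 and 4.29 on slide 2. The course of those members also went down at the slide change, so slide and time cannot be told apart in these r.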

How the data were processed

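RNA of 12 leaf samples was measured on 1 one-colour array each. Per the file headers, the authors used Agilent Feature Extraction 10.5.1.1 to quantify the arrays. The deposited scanner files give each spot's intensity as raw, background and processed signal. A deposited series table gives 1 log2 value per array for each of the 15013 probes, made by a method not given in the sources used here. Its columns share a median of 1.37, and their direction and log2 scale follow from the match to processed signal.

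The members and the lists of named and clock genes were chosen with earlier results of these data known. The rule for members was applied to the series table. Levels were log2 processed signals, from which the 75th percentile of the array over 2876 probes was subtracted. Control spots (536) and outlier spots (0 to 9 per array) were left out, no spot was saturated, and no member lost a value. Tests covered the 3306 transcripts whose chosen probe was well above background on both replicates of 1 time point or more. Fits used lmFit and eBayes of limma 3.58.1 under R 4.3.3 (1 mean per time point, Benjamini-Hochberg at 0.05) and the code was tested on simulated data. Errors are standard errors of the fit. The precision is limited by 2 arrays per time point and, for dim probes, by signal over background.

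Alternatives were other scalings, normexp with an offset of 50 on median signal (the files have no mean signal) with quantile normalization, the filter, the mean of probes, array weights, slides, a replicate block and leaving out arrays. Named members were the 10 widest ranges per class, pairs within 2 consecutive TU names, and the 3 at the limit, and named loci the 5 most like each median course and the clock list. Array headers name an older genome build than the gene table used for locus names (TAIR10.1), so only start positions in the array's own names are given.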

Additional observations from a re-analysis of the deposited data

How the results depend on the processing

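The number of TU names that met the rule, 116 in the series table, was 56 by processed signal, 10 after normexp and quantile normalization, 34 with the mean of all probes of a name, and 65 without both 16 h arrays, the last an alternative chosen after seeing the data. Leaving out single arrays gave 65 to 247, the lowest without the second and the highest without the first dark 16 h array, and the other 10 gave 112 to 151. Members called in the F test numbered 33, and 19 with the percentile over all probes, 53 after normexp and quantile normalization, 14 with no filter, 62 over probes well above background on all arrays, 17 with the mean of probes and 7 within slide 2. Without single arrays they numbered 17 to 53, under 22 when an array of 0, 4 or 20 h was left out and 53 without the first 16 h array. Members called for 0 h minus 4 h numbered 2, and 0, 5, 0 and 6 under the first 4 of these settings, 1 in the series table and after quantile normalization of processed signal, 8 with array weights, 0 within slide 1 and 0 to 3 without single arrays. They numbered 0 without any single array of 0 or 4 h and 1 without any single array of 8 or 20 h. Members called for 20 h against 8, 12 and 16 h numbered 20, and 7, 38, 11, 32 and 11 under the first 5 settings, 8 within slide 2 and 8 to 24 without single arrays, with 8 and 9 when an array of 20 h was left out and 13 without either array of 4 h.

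The replicate numbers were not treated as pairs, since 5 and not all of the 15 correlations of deviations exceeded 0.1 and no label ties the numbers to a shared source. The arrays of 5 of 6 time points correlated best with their own number, a hint from the data that some numbers may share a source. With the replicate block 31, 1 and 18 members were called in the 3 tests, and the call lost for 0 h minus 4 h was that of AT5TU052760. With the percentile over all probes the median of all tested for 20 h against 8, 12 and 16 h moved from -0.17 to 0.15. Calls as higher over all tested made up 33.5% of calls in that comparison and 58.2% after normexp and quantile normalization. For 0 h minus 4 h they made up 53.6%, and 33.3% with the percentile over all probes, where 3 transcripts were called. Of 550 values of named members under alternatives, 493 moved by less than 1 SD, and 7, none of them called, took the opposite sign. The count of other probes highest at 0 or 20 h was 36, and 37 to 40 under 5 settings chosen after seeing the data. Signal over background limits what can be said of dim members.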
